A study of Mus musculus with 5 samples.

Results

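Wnt proteins are secreted signals, and the genes described here encode the ligands, the receptors that bind them and the proteins that hold them back. They were chosen by symbol: every Wnt, Frizzled (Fzd), R-spondin (Rspo), Lgr4 to Lgr6, Sfrp and Dkk gene, with Lrp5, Lrp6, Ror1, Ror2, Ryk, Znrf3, Rnf43, Axin1 and Axin2, where the expression table has a row for it. That gave 43 of the 22683 genes in the table: 14 ligands, 10 Frizzled receptors, 2 LRP co-receptors, 1 R-spondin, 3 R-spondin receptors, 3 tyrosine kinase-like receptors, 1 ubiquitin ligase, 7 secreted antagonists and 2 Axin scaffolds. Some members of these families, among them Wnt7a, Rspo2 and Rspo3, were not analysed here. The RNA came from sorted satellite cells, the stem cells that rest along the muscle fiber, described as quiescent in the labels. Wild-type mice gave 2 libraries and mdx mice, which carry a premature stop codon in the dystrophin gene and serve as a model of Duchenne muscular dystrophy, gave 3. Each library was made from 10000 to 20000 sorted cells. Strain, age, sex, muscle and sort markers are not stated in the labels, and no treatment is named for either genotype.

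In the canonical pathway a Wnt ligand joins a Frizzled receptor to LRP5 or LRP6, the Axin complex stops marking beta-catenin for destruction, and beta-catenin works with TCF and LEF factors on target genes. R-spondins, through LGR receptors, shield Frizzled from the ubiquitin ligases ZNRF3 and RNF43. Other branches use ROR and RYK receptors, the planar polarity proteins or calcium. SFRP proteins bind ligands outside the cell, and DKK proteins block LRP co-receptors. In satellite cells, WNT7A acting through FZD7 and VANGL2 is known to drive symmetric division, WNT4 from the muscle fiber is known for its part in quiescence, and canonical signalling is known for promoting differentiation after injury.

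Levels are normalized read counts, the authors' counts divided by a size factor for each library. Totals lay between 12473348 and 16825045 normalized counts per library. Dmd, the dystrophin gene itself, stood at 11826 and 9266 normalized counts in wild type 1 and 2, against 4642, 4116 and 3700 in mdx 1, 2 and 3, and was 2.53-fold lower in mdx (limma adjusted p = 0.00099), in the direction of the genotype labels. Xist, transcribed from the inactive X chromosome, stood at 30235 and 30176 in wild type and at 0 to 12 in mdx, whereas Ddx3y, Uty, Kdm5d and Eif2s3y, all on the Y chromosome, stood at 0 to 9 in wild type and at 430 to 967 in mdx. Sex and genotype therefore cannot be told apart in any comparison below. Pax7, which defines satellite cells, was abundant in all 5 libraries and was not called, while 3 of 12 satellite cell markers were higher and 7 lower in mdx, with summed levels of 81802 to 96938 in wild type and 48045 to 67862 in mdx. Of the markers of other cell types, 12 of 13 for fibro-adipogenic progenitors (mesenchymal cells of the muscle stroma) were higher in mdx and 1, Dpt, was lower, summing to 18433 to 26824 in wild type and 87806 to 149100 in mdx, with Postn, Dpp4 and Mfap5 at 0 in both wild-type libraries. Of 13 endothelial markers, 12 were higher and 1, Tek, was lower (3098 to 3613 against 19459 to 25540; Emcn, Cldn5 and Erg at 0 in wild type), as were 12 of 14 macrophage markers (429 to 683 against 10879 to 16096; Itgam, C1qa, C1qb, C1qc, Mrc1 and Fcer1g at 0 in wild type). Higher in mdx were also 6 of 7 tenocyte markers (73 to 155 against 7500 to 18286), 6 of 8 Schwann cell markers (356 to 479 against 1060 to 1537), 4 of 8 pericyte and smooth muscle markers, with 1 lower (3348 to 3781 against 9050 to 10622), and 3 of 9 myofiber markers (3356 to 3960 against 28703 to 71912). Most of the myofiber sum in mdx was Ttn (2475 and 2100 in wild type, against 37164, 64744 and 23685 in mdx). Of the 9 myofiber markers, 6 were not called, and the median log2 fold change was 0.46. The part of the cell types above and of sex in the results below was not tested.

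The dystrophic libraries carried 2 ligands, 2 Frizzled receptors, the co-receptor gene Lrp5 and 3 secreted antagonists at higher levels, and the ligand gene Wnt4 at a lower level. Of the 43 genes, 36 reached 10 in 2 or more libraries and were tested. Among these, 8 were higher in mdx, 1 was lower and 27 were not called at an adjusted p of 0.05. The called share, 25% of those tested, lay beside 24.9% of the 18199 genes tested in the whole table. By direction, 22.2% of the tested Wnt genes were called higher, beside 14.6% of all genes, and 2.78% were called lower, beside 10.3% of all genes. Of those called higher, Wnt5a, Wnt10a, Fzd6, Sfrp1, Sfrp2 and Dkk2 were at 0 in both wild-type libraries and passed the filter only through mdx. Only Fzd1 and Lrp5 were called higher among the Wnt genes above 0 in wild type. In 13 of the 36 (36.1%) the lowest mdx value exceeded the highest wild-type value, which held for 28.2% of all tested genes, and in 3 (8.33%) the reverse was seen, which held for 23.8%. Among the 13, 9 were at 0 in both wild-type libraries, so any value above 0 in every mdx library was enough. The median log2 fold change was 0.45 over the 36 genes and 0.135 over all tested genes, and over the 26 Wnt genes above 0 in wild type it was 0.18. With RNA from a whole sorted population, fewer cells of a type and less RNA per cell cannot be told apart. The labels do not say that the libraries came from separate animals, so p-values reflect only how these libraries differ among themselves, a spread that may be technical.

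**Figure D1:**
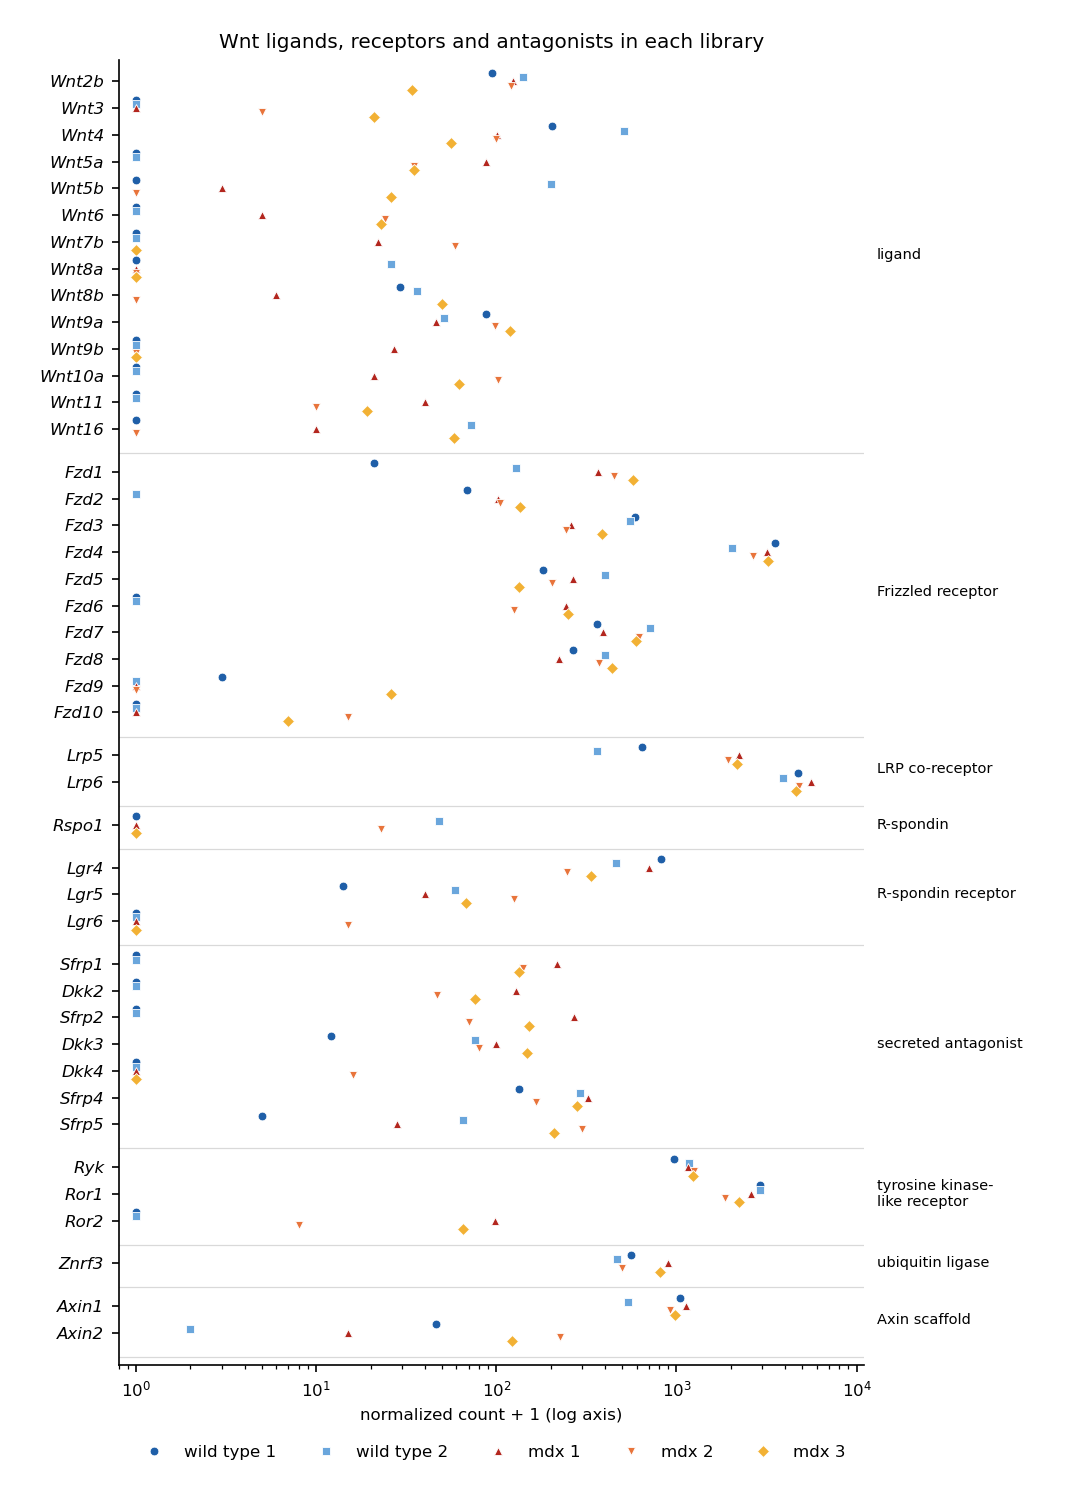
Normalized count plus 1 (horizontal log axis) of the 43 Wnt genes (rows, grouped by role), with 1 point for each of the 2 wild-type and 3 mdx libraries; points are shifted vertically only to keep them apart. A point at the left edge, at 1, is a gene listed at 0: Fzd6, Sfrp1, Sfrp2 and Dkk2 sit there in both wild-type libraries and at 46 or more normalized counts in every mdx library, while Fzd4, Lrp6 and Ror1 lie at 1865 or more in all 5.

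A feature shared by many of these genes was a value of 0 in wild type. Both wild-type libraries listed 15 of the 43 at 0, and 1 gene, Wnt8a, was at 0 in all 3 mdx libraries. A value of 0 in 2 libraries is an easier condition than 0 in 3. Zeros were also more frequent in wild type over the whole table. Of the 22683 genes, 5329 and 6125 were at 0 in wild type 1 and 2, against 4690, 4359 and 4066 in mdx 1, 2 and 3. Of the 36 tested, 9 were at 0 in both wild-type libraries and above 0 in every mdx library (25%), which held for 5.18% of all tested genes. These 9 were Wnt5a, Wnt6, Wnt10a, Wnt11, Fzd6, Sfrp1, Sfrp2, Dkk2 and Ror2. No fold change is printed for them in the text, since a value of 0 sets no base for one. The fold change figures plot their estimates, and those estimates and their p-values depend on the added 2. A gene passing the filter with 2 empty wild-type libraries had to be above 0 in mdx.

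Wnt4, the ligand with the highest level per kilobase of transcript in wild type, was the 1 gene of the family called lower. It stood at 203 and 509 normalized counts in wild type 1 and 2, against 100, 98 and 55 in mdx 1, 2 and 3. The genotypes did not overlap, with mdx below, and the wild-type libraries differed from each other by more than the mdx libraries did. The mean fell from 356 ± 216 (SD, n = 2) to 84.3 ± 25.4 (SD, n = 3), which is 3.88-fold lower on the scale of log2(normalized count + 2) (log2 fold change -1.96, 95% interval -3.34 to -0.57, limma adjusted p = 0.0456). The call was lost without wild type 2 (log2 fold change -1.30, limma adjusted p = 0.295; -2.61 without wild type 1 and -2.57 after the correction for transcript length and GC content) and without any 1 of the mdx libraries (limma adjusted p 0.0927, 0.0928 and 0.125 without mdx 1, 2 and 3), and over all 14 alternatives the adjusted p lay between 0.00433 and 0.295. Wnt4 (chr4:137277489-137299726, plus strand, mm10) made up 43.6% and 39.2% of the summed ligand level per kilobase in wild type, against 19.1%, 14% and 8.58% in mdx.

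Wnt5a, a ligand of the planar polarity and calcium branches (chr14:28504750-28527448, plus strand), was listed at 0 in wild type 1 and 2, against 86, 34 and 34 normalized counts in mdx 1, 2 and 3. It was called higher (limma adjusted p = 0.0248). Wnt10a, a ligand of the canonical branch (chr1:74791516-74804179, plus strand), was listed at 0 in wild type 1 and 2, against 20, 101 and 61 in mdx 1, 2 and 3. It was called higher as well (limma adjusted p = 0.0262), but not without mdx 2 or without mdx 3 (limma adjusted p = 0.0573 and 0.0664) and not after a correction for transcript length and GC content (limma adjusted p = 0.112); over the 14 alternatives the adjusted p lay between 0.021 and 0.112. The mdx libraries ranked in different orders for these genes, with mdx 1 highest for Wnt5a and lowest for Wnt10a.

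The ligand gene next to Wnt10a on chromosome 1 was Wnt6, which ends 6.19 kb before Wnt10a begins. Wnt6 was listed at 0 in wild type, against 4, 23 and 22 in mdx 1, 2 and 3, in the same order of libraries as Wnt10a, and was not called (limma adjusted p = 0.159). The other neighbours in the family, Wnt9b and Wnt3 on chromosome 11, lie 24.3 kb apart and were too low to test. Wnt9b was listed at 26 in mdx 1 and at 0 elsewhere, and Wnt3 at 4 in mdx 2 and 20 in mdx 3 and at 0 elsewhere, so these neighbours were above 0 in different libraries.

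Other ligands were low and uneven. Wnt5b, a relative of Wnt5a, was listed at 0 and 201 in wild type 1 and 2, against 2, 0 and 25 in mdx, so its whole wild-type signal came from 1 library (limma adjusted p = 0.572). Wnt11, a ligand of the non-canonical branches, was at 0 in wild type, against 39, 9 and 18 in mdx 1, 2 and 3 (limma adjusted p = 0.0972). Wnt2b stood at 94 and 140 in wild type, against 122, 120 and 33 in mdx, and Wnt9a at 86 and 50 in wild type, against 45, 97 and 118 in mdx. For both genes the genotypes overlapped. Wnt7b (0 and 0 against 21, 58 and 0), Wnt8b (28 and 35 against 5, 0 and 49) and Wnt16 (0 and 71 against 9, 0 and 57) overlapped too and were not called. Wnt8a had a value of 25 in wild type 2 and 0 in the other libraries, and was not tested. The summed level of the ligand genes was 411 and 1031 in wild type, against 479, 544 and 492 in mdx, so the mdx sums lay between the wild-type sums.

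Among Frizzled receptors, the main one in every library was Fzd4, a receptor for Wnt ligands and for Norrin. Fzd4 stood at 3514 and 2025 normalized counts in wild type, against 3165, 2647 and 3230 in mdx, so that all mdx libraries lay between the wild-type ones (log2 fold change 0.17, 95% interval -0.39 to 0.73, limma adjusted p = 0.653). Per kilobase of transcript it supplied 70.3% and 45.9% of the Frizzled level in wild type, against 57.2%, 48.6% and 49.1% in mdx. Fzd7, the WNT7A receptor of satellite cells, stood at 362 and 711 in wild type, against 389, 620 and 593 in mdx. Its means per kilobase were 118 in both genotypes, and its log2 fold change was 0.04 (95% interval -0.82 to 0.91, limma adjusted p = 0.946), an interval that leaves room for a change of either sign.

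Fzd1 and Fzd6 were the Frizzled genes called higher. Fzd1 (chr5:4753839-4758035, minus strand) stood at 20 and 127 normalized counts in wild type 1 and 2, against 366, 451 and 574 in mdx 1, 2 and 3. Every mdx library was above both wild-type libraries, by more than the wild-type gap in normalized counts but not on the log2 scale of the test. Its mean rose from 73.5 ± 75.7 (SD, n = 2) to 464 ± 105 (SD, n = 3), 8.6-fold on the log2(normalized count + 2) scale (log2 fold change 3.10, 95% interval 1.49 to 4.72, limma adjusted p = 0.0135). The call was lost without any 1 mdx library (limma adjusted p 0.0722, 0.0806 and 0.0968 without mdx 1, 2 and 3; 1.31e-10 to 0.0968 over the 14 alternatives). The log2 fold change was 1.83 without wild type 1, 4.38 without wild type 2, 2.51 after the correction for transcript length and GC content and 2.94 to 3.26 without 1 mdx library. Its share of the Frizzled level per kilobase was 0.64% and 4.61% in wild type, against 10.6%, 13.3% and 14% in mdx. Fzd6, known from planar polarity in skin and hair (chr15:39006280-39038186, plus strand), was listed at 0 in wild type 1 and 2, against 243, 125 and 250 in mdx 1, 2 and 3, and was called higher (limma adjusted p = 0.00169) there and in all 14 alternatives.

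The remaining Frizzled genes did not pass the test. Fzd3, which acts in planar polarity and axon guidance, stood at 589 and 551 in wild type, against 258, 241 and 384 in mdx, with no overlap. It was 1.97-fold lower on the log2(normalized count + 2) scale (log2 fold change -0.98, limma adjusted p = 0.073). After the correction for transcript length and GC content it was called lower (log2 fold change -1.50, limma adjusted p = 0.03; 0.03 to 0.17 over the 14 alternatives). Fzd2 stood at 68 and 0 in wild type, against 101, 104 and 135 in mdx (limma adjusted p = 0.119), and without wild type 1, which leaves the library at 0, it was called (limma adjusted p = 4.47e-05; up to 0.6 over the alternatives). Fzd5 (181 and 401 against 264, 203 and 133) and Fzd8 (267 and 402 against 222, 369 and 438) overlapped between genotypes. Fzd9 and Fzd10 were at 25 or less in every library and were not tested. The summed level of the Frizzled genes was 5003 and 4217 in wild type, against 5008, 4774 and 5768 in mdx, ranges that overlap.

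The upstream sequence of Fzd1 and of Fzd7 is shown because the first rose while the second, the receptor best known in these cells, was not called. Each is the stretch of 250 bases before the start site in RefSeq on GRCm38.p6, the assembly also known as mm10. In Fzd1 capitals mark CpG pairs, of which there are 12. In Fzd7 capitals mark the reverse-strand match to CTTTGTT, a core of TCF and LEF binding sites, whose first base lies 130 bases before the start site. The RefSeq start sites lie 181 (Fzd1) and 277 (Fzd7) bases upstream of the gene starts in the deposited table.
Fzd1, chr5:4758217-4758466, minus strand: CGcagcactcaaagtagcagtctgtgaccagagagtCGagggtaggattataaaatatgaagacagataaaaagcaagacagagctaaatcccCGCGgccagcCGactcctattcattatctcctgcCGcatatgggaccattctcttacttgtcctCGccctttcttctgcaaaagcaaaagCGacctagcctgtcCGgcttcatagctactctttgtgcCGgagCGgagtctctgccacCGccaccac
Fzd7, chr1:59481897-59482146, plus strand: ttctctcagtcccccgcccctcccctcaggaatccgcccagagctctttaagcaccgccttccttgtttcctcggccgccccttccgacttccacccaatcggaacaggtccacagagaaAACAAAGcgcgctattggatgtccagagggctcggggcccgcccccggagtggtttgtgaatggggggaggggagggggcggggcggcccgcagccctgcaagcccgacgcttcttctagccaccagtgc
RefSeq windows were matched for 26 of the 43 genes, and both strands were searched for CTTTGAA or CTTTGAT and for CTTTGTT or CTTTGTA, which differ in their last letters and so exclude each other at a position. A match was found in 2 of the 26 (7.69%), Fzd7 and Wnt11, against 4874 of 32851 windows in all (14.8%). The median number of CpG pairs was 23 in the 26 windows and 6 in all windows. A match is a run of letters, not a shown binding site.

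Of the LRP co-receptors, Lrp5 was called higher and Lrp6 was not called. Lrp5 (chr19:3584828-3686564, minus strand) stood at 644 and 360 normalized counts in wild type 1 and 2, against 2237, 1932 and 2164 in mdx 1, 2 and 3. The lowest mdx library was above the highest wild-type library, and the mdx libraries lay close together. Its mean rose from 502 ± 201 (SD, n = 2) to 2111 ± 159 (SD, n = 3), 4.36-fold on the log2(normalized count + 2) scale (log2 fold change 2.12, 95% interval 1.50 to 2.75, limma adjusted p = 0.000825). Lrp5 was called in all 14 alternatives; the smallest log2 fold change, 1.15, came after the correction for transcript length and GC content (limma adjusted p = 0.018; 4.11e-15 to 0.0301 over the alternatives). Lrp6 stood at 4704 and 3895 in wild type, against 5586, 4771 and 4606 in mdx, with overlap (log2 fold change 0.22, 95% interval -0.18 to 0.61, limma adjusted p = 0.396). The intervals of the fold changes of Lrp5 and Lrp6 did not overlap, but the difference between these genes was not tested. Per kilobase of transcript, Lrp6 was at 459 in wild type and 532 in mdx, and Lrp5 at 56.4 and 237. Lrp5 thus made up 12.6% and 8.87% of the co-receptor level in wild type, against 29.7%, 29.9% and 33.1% in mdx, with Lrp6 the larger share in every library.

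**Figure D2:**
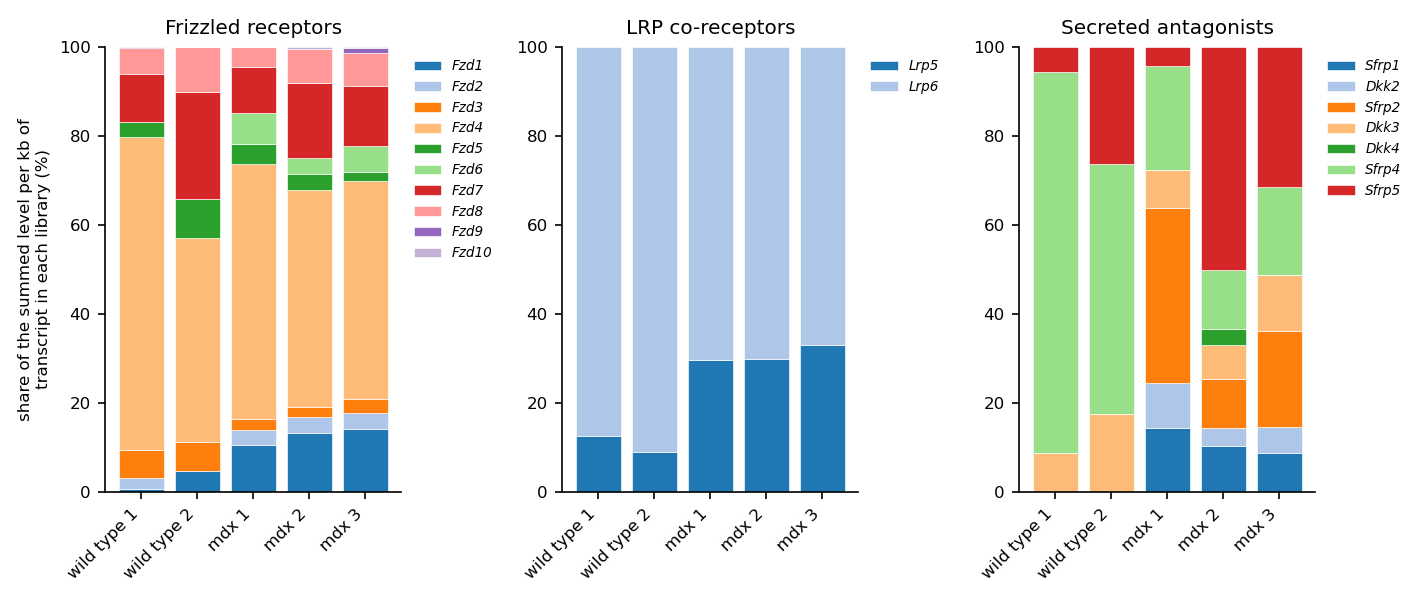
Share (vertical axis, %) of each gene in the summed level per kilobase of transcript of its role, as 1 stacked bar for each of the 2 wild-type and 3 mdx libraries, for Frizzled receptors, LRP co-receptors and secreted antagonists. Fzd4 is the largest Frizzled part in every bar, the Lrp5 part is 8.87% to 12.6% in wild type and 29.7% to 33.1% in mdx, and Sfrp1, Sfrp2 and Dkk2 appear only in the mdx bars.

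The R-spondin arm showed no gene called by limma, and none with an unadjusted p under 0.05 (0 genes). Lgr4, its receptor of highest level per kilobase, stood at 820 and 463 normalized counts in wild type, against 700, 246 and 336 in mdx (log2 fold change -0.67, 95% interval -1.74 to 0.40, limma adjusted p = 0.328). Lgr5, a Wnt target and stem cell marker in gut, stood at 13 and 58 in wild type, against 39, 124 and 67 in mdx (limma adjusted p = 0.382). In both genes the libraries of the genotypes overlapped. Lgr6 was listed at 14 in mdx 2 and at 0 in every other library, and was not tested. Rspo1, the R-spondin in the table, was listed at 47 in wild type 2, at 22 in mdx 2 and at 0 in the other 3 libraries (limma adjusted p = 0.705). Znrf3, the ubiquitin ligase that removes Frizzled from the membrane, stood at 556 and 468 in wild type, against 892, 497 and 805 in mdx, with 1 mdx library inside the wild-type range (log2 fold change 0.47, 95% interval -0.26 to 1.21, limma adjusted p = 0.311).

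Of the tyrosine kinase-like receptors, Ror1 had the highest level per kilobase in wild type of all 43 genes, at 505, against 386 in mdx. It stood at 2914 and 2909 normalized counts in wild type, against 2582, 1865 and 2218 in mdx. All mdx libraries were below the wild-type ones, and the level was 1.32-fold lower on the log2(normalized count + 2) scale (log2 fold change -0.40, 95% interval -0.85 to 0.05), but the gene was not called (limma adjusted p = 0.172). It was called lower after the length and GC correction (log2 fold change -0.74, limma adjusted p = 0.0322; 0.0322 to 0.525 over the 14 alternatives). Ror2, a WNT5A receptor, was listed at 0 in wild type 1 and 2, against 97, 7 and 64 in mdx 1, 2 and 3 (limma adjusted p = 0.0591). It was called without mdx 2, its lowest mdx library (limma adjusted p = 0.0336; up to 0.149 over the alternatives). Ryk stood at 965 and 1178 in wild type, against 1160, 1246 and 1235 in mdx (log2 fold change 0.19, 95% interval -0.30 to 0.67, limma adjusted p = 0.563), with overlap.

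Secreted antagonists held 3 of the 8 higher calls. Sfrp1 (chr8:23411502-23449632, plus strand) was listed at 0 in wild type 1 and 2, against 216, 139 and 133 normalized counts in mdx 1, 2 and 3 (limma adjusted p = 0.00242). Sfrp2 (chr3:83766321-83774316, plus strand) was listed at 0 in wild type, against 270, 69 and 150 in mdx 1, 2 and 3 (limma adjusted p = 0.00422). Dkk2 (chr3:132085292-132180304, plus strand) was listed at 0 in wild type, against 128, 46 and 75 in mdx 1, 2 and 3 (limma adjusted p = 0.0109). For each of these genes mdx 1 was the highest library, and for Sfrp2 and Dkk2 mdx 2 was the lowest. Added together they gave 614, 254 and 358 in mdx 1, 2 and 3. Their wild-type sum of 0 was fixed in advance, since genes at 0 in wild type were picked for it.

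The other antagonists were already present in wild type or too low to test. Sfrp4 stood at 132 and 292 in wild type, against 323, 165 and 281 in mdx and was the largest antagonist in both wild-type libraries (limma adjusted p = 0.685). Sfrp5 stood at 4 and 64 in wild type, against 27, 296 and 208 in mdx (limma adjusted p = 0.181), and Dkk3, a divergent member of the DKK family, at 11 and 75 in wild type, against 98, 79 and 147 in mdx (limma adjusted p = 0.203). In Dkk3 the lowest mdx value was only just above the highest wild-type value, and in Sfrp5 the genotypes overlapped. Without wild type 2, which leaves the lower wild-type library, both were called (limma adjusted p = 0.000767 for Sfrp5 and 0.0215 for Dkk3; up to 0.46 and 0.705 over the 14 alternatives). Dkk4 was listed at 15 in mdx 2 and at 0 elsewhere. The summed level of all antagonist genes was 147 and 431 in wild type, against 1062, 809 and 994 in mdx, without overlap. Of these mdx sums, 614, 254 and 358 came from Sfrp1, Sfrp2 and Dkk2, which were at 0 in wild type.

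The upstream sequences of Sfrp2 and Dkk2 are shown because these antagonists were listed at 0 in every wild-type library and were above 0 in every mdx library. Capitals mark CpG pairs, 16 in Sfrp2 and 7 in Dkk2, in the 250 bases before the RefSeq start site on GRCm38.p6, which here equals the deposited gene start. Neither holds a TCF and LEF core in these letters.
Sfrp2, chr3:83766071-83766320, plus strand: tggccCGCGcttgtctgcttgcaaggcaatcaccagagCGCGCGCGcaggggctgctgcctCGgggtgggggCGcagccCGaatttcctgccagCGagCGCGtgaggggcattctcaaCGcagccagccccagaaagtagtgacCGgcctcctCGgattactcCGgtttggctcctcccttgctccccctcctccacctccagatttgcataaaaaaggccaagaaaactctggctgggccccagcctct
Dkk2, chr3:132085042-132085291, plus strand: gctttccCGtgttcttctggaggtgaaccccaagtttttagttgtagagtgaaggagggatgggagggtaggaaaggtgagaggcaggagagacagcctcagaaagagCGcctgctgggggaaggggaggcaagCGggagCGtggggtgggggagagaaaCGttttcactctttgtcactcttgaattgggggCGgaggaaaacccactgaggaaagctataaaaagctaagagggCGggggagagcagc

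**Figure D3:**
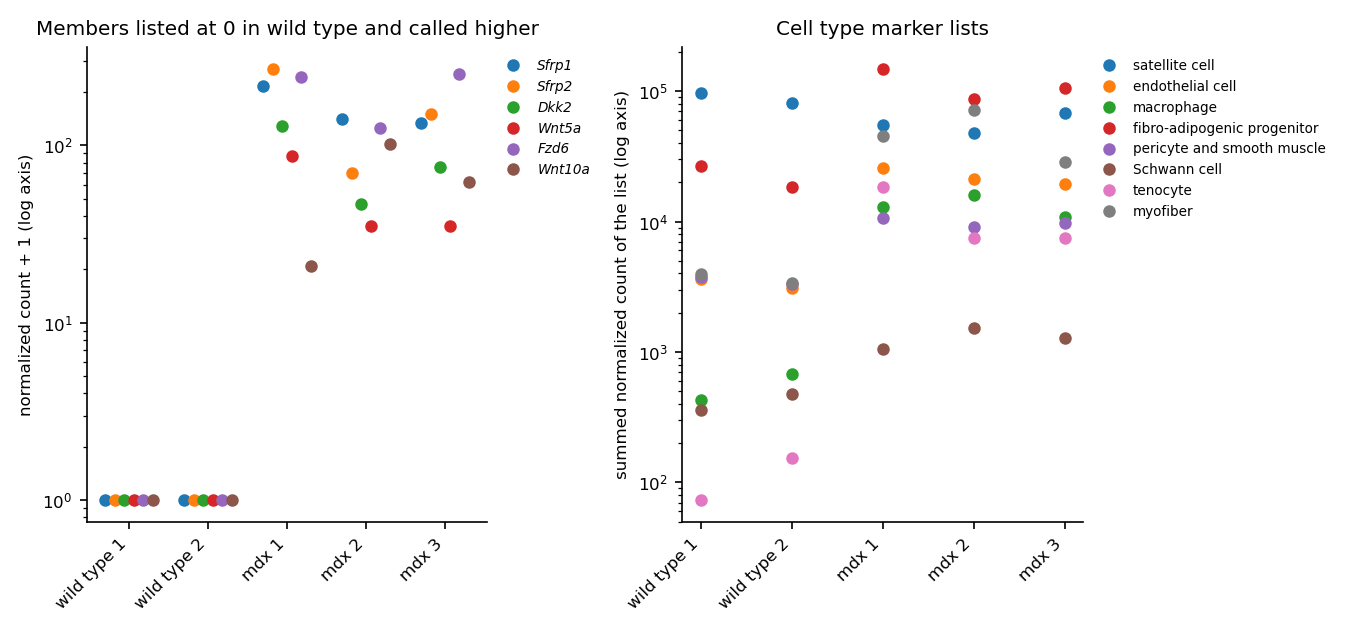
Left, normalized count plus 1 (log axis) of the 6 Wnt genes at 0 in both wild-type libraries and called higher; right, summed normalized count (log axis) of each cell type marker list, with 1 column of points for each of the 2 wild-type and 3 mdx libraries. Sfrp2 and Dkk2 rank mdx 1, mdx 3, mdx 2, as the fibro-adipogenic progenitor sum does, and Wnt10a ranks mdx 2, mdx 3, mdx 1, as the Schwann cell sum does. Every order of the mdx libraries but mdx 3, mdx 2, mdx 1 is that of some marker sum.

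The order of the 3 mdx libraries differed between members. Of the 34 members whose mdx values had no tie, 10 (29.4%) ranked mdx 1, mdx 3, mdx 2, an order found in 17.1% of all tested genes without ties. These were Wnt11, Lrp5, Lgr4, Dkk2, Sfrp2, Sfrp4, Ror1, Ror2, Znrf3 and Axin1, and the summed markers of fibro-adipogenic progenitors and of pericytes and smooth muscle had the same order. Another 7 (20.6%, against 19.3% of all genes), namely Wnt6, Wnt10a, Fzd7, Lgr5, Sfrp5, Ryk and Axin2, ranked mdx 2, mdx 3, mdx 1, as the Schwann cell markers did. Sfrp1 ranked mdx 1, mdx 2, mdx 3, as the endothelial sum did. The tenocyte sum had that order too, but was nearly tied at 7502 in mdx 2 and 7500 in mdx 3. Fzd6 ranked mdx 3, mdx 1, mdx 2, as the satellite cell sum did. Single markers did not all rank as the sum of their list. Only the order mdx 3, mdx 2, mdx 1, that of 15.2% of all genes, was matched by no marker sum, so most genes share an order with some list. With 3 libraries these orders are descriptions, and the part of other cell types in the Wnt values was not tested.

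Axin1 and Axin2, the scaffolds of the beta-catenin destruction complex, were not called. Axin2, which is also the best known general target of canonical signalling, stood at 45 and 1 normalized counts in wild type, against 14, 224 and 121 in mdx (log2 fold change 2.68, 95% interval -0.76 to 6.13, limma adjusted p = 0.23). The mdx 1 library lay inside the wild-type range while mdx 2 and mdx 3 lay above it. Axin1 stood at 1040 and 535 in wild type, against 1128, 915 and 984 in mdx (log2 fold change 0.43, limma adjusted p = 0.336). Without wild type 1 both were called higher (limma adjusted p = 0.00476 for Axin2 and 0.0349 for Axin1; up to 0.661 and 0.929 over the 14 alternatives), and without wild type 2 the log2 fold change of Axin1 was -0.05.

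**Figure D4:**
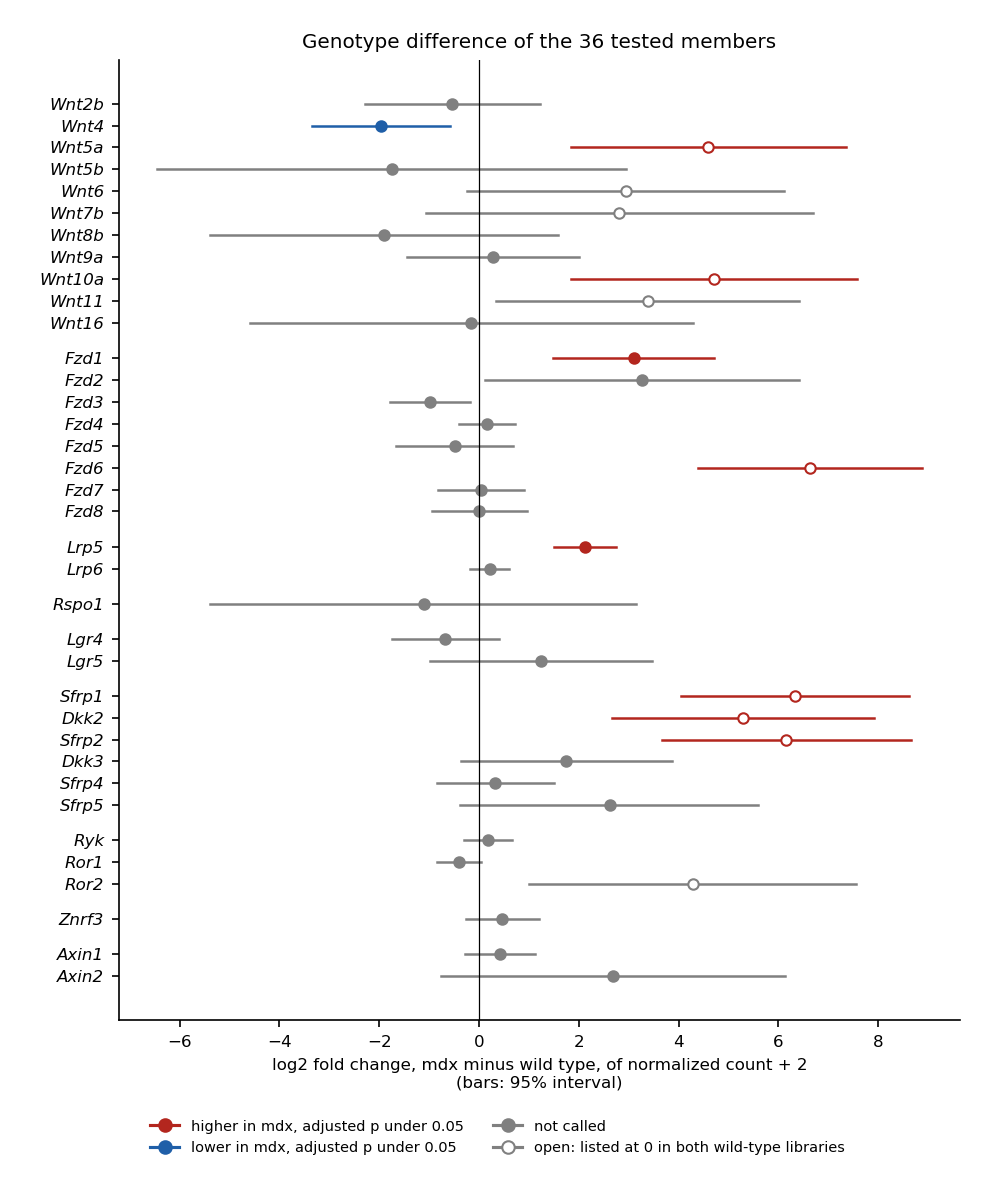
Log2 fold change, mdx minus wild type, of normalized count + 2 (horizontal axis) for the 36 tested Wnt genes (rows), with 95% intervals; red is called higher, blue called lower, grey not called, and open circles are genes at 0 in both wild-type libraries, whose values depend on the added 2. Lrp5, at 2.12, has a narrower interval than the other 7 genes called higher, and Wnt4, at -1.96, is the 1 gene called lower.

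Some low members were uneven within a genotype, at shares near those of all genes in their range. Among the 18 members with a mean of 20 to 200 over the libraries, 3 were at 0 in 1 wild-type library and at 20 or more in the other (16.7%, against 10.8% of the 7325 genes of that range): Wnt5b, Wnt16 and Fzd2. In mdx, 3 of the 18 (16.7%, against 12.7%) were at 0 in 1 library and at 20 or more in another: Wnt5b, Wnt8b and Wnt16. For these genes a single library decides the mean of a genotype.

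Beyond the ligands and receptors, other genes of the pathway were counted in lists. Of 24 tested Wnt target genes, 14 were higher in mdx and 0 lower by limma (1 lower at an unadjusted p under 0.05), a share of 58.3% beside 14.6% of all tested genes, with a median log2 fold change of 1.56. The targets Axin2 and Lgr5 belong to the Wnt family above and are not in this list. Neither was called (limma adjusted p = 0.23 and 0.382). Runx2, a bone and mesenchymal regulator, stood at 39 and 14 in wild type, against 317, 478 and 354 in mdx, 14.8-fold higher (limma adjusted p = 0.00233). Ccnd1, which encodes cyclin D1 of the G1 phase, stood at 1101 and 722 in wild type, against 2338, 3107 and 2527 in mdx, 2.95-fold higher (limma adjusted p = 0.00217). Gja1, a gap junction gene, rose from a mean of 262 ± 3.54 (SD, n = 2) to 1343 ± 431 (SD, n = 3), 4.91-fold on the log2(normalized count + 2) scale (limma adjusted p = 0.00134). Nrcam, a cell adhesion gene, stood at 0 and 7 in wild type, against 201, 455 and 239 in mdx (limma adjusted p = 0.00235). In each of these 4 genes every mdx library was above both wild-type libraries. The gene behind the unadjusted lower value was Myc, a growth regulator chosen after its values were seen (1229 and 1223 against 879, 629 and 732, limma adjusted p = 0.0584), which was called with a filter of 50 in place of 10 (limma adjusted p = 0.0472; 0.0472 to 0.198 over the alternatives). These genes are also controlled by other pathways and expressed by other cell types. The log2 fold change of Nrcam was 4.97 without wild type 1, 7.14 without wild type 2 and 4.48 with a pseudocount of 10, and that of Runx2 was 4.57 and 3.21 without wild type 1 and 2 and 3.30 after the length and GC correction, each with the gene still called. The list held 8, 5 and 7 higher calls without mdx 1, 2 and 3.

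Of 41 tested genes of the intracellular canonical pathway, 14 were higher and 2 lower (34.1% and 4.88%, beside 14.6% and 10.3% of all genes), with a median log2 fold change of 0.64. Higher were Bcl9l, a co-activator of beta-catenin (204 and 288 against 1156, 1357 and 1698; 5.68-fold, limma adjusted p = 0.000473), and Tle3, a co-repressor that acts against it (1321 and 1662 against 4288, 4575 and 5986; 3.3-fold, limma adjusted p = 0.000597). Dvl3, which relays the Frizzled signal, stood at 87 and 157 in wild type, against 811, 719 and 1165 in mdx (7.41-fold higher, limma adjusted p = 0.00102), and Tcf7l2, a DNA-binding partner of beta-catenin, at 372 and 251 in wild type, against 1083, 964 and 1106 in mdx (3.42-fold higher, limma adjusted p = 0.00241). Lower were the kinase genes Gsk3a (1174 and 1721 against 593, 500 and 431; 2.81-fold, limma adjusted p = 0.00544) and Csnk1d (4816 and 3661 against 2234, 1923 and 1957; 2.06-fold, limma adjusted p = 0.00523). The other GSK3 gene of the list, Gsk3b, was chosen after its values were seen and went the opposite way to Gsk3a. It stood at 1111 and 934 in wild type, against 2370, 2473 and 1913 in mdx (2.19-fold higher, limma adjusted p = 0.00535). Its alternatives are not given here. Ctnnb1, the gene for beta-catenin, stood at 7987 and 9011 in wild type, against 6366, 6141 and 6186 in mdx, 1.36-fold lower without overlap, and was not called (limma adjusted p = 0.0583). Its log2 fold change was -0.45 as deposited, 0.12 after quantile normalization and -0.60 after the length and GC correction, the last of these called (limma adjusted p = 0.018; 0.018 to 0.599 over the 14 alternatives). Lef1 was at 11 or less in every library. After the length and GC correction the log2 fold change went from 2.51 to 0.99 for Bcl9l, from 1.72 to 0.87 for Tle3 and from -1.49 to -2.26 for Gsk3a, all 3 still called. The list held 8, 6 and 5 higher calls without mdx 1, 2 and 3, and 9 after the length and GC correction.

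In the planar polarity and calcium branch, 19 of 42 tested genes were higher and 2 lower (45.2% and 4.76%, beside 14.6% and 10.3%), with a median log2 fold change of 1.04. Nfatc2, a calcium-responsive transcription factor, stood at 209 and 245 in wild type, against 1702, 1481 and 1517 in mdx, 6.86-fold higher (limma adjusted p = 0.000121). Nfatc1 stood at 339 and 132 in wild type, against 1193, 1275 and 974 in mdx, 5.34-fold higher (limma adjusted p = 0.00288). Camk2b, a calcium-dependent kinase gene, was listed at 0 in wild type, against 130, 85 and 193 in mdx (limma adjusted p = 0.00395), and Plcb4, a phospholipase gene, was 3.82-fold higher (limma adjusted p = 0.00422), though not without mdx 1 or mdx 3 (limma adjusted p = 0.055 and 0.0511; 1.96e-18 to 0.0687 over the alternatives). The lower genes were the small GTPases Rhoa (5637 and 6582 against 2359, 3260 and 2971; 2.15-fold, limma adjusted p = 0.00403) and Cdc42 (4868 and 4423 against 2634, 2370 and 2496; 1.86-fold, limma adjusted p = 0.00561), the latter not called after the length and GC correction (limma adjusted p = 0.139; 0.00182 to 0.139 over the alternatives). Vangl2, the planar polarity partner of FZD7, stood at 37 and 200 in wild type, against 512, 279 and 423 in mdx, all mdx libraries above both wild-type libraries (4.44-fold higher, limma adjusted p = 0.0481). Leaving out wild type 1 took its log2 fold change from 2.15 to 0.97 (limma adjusted p = 0.153), and leaving out any 1 mdx library also ended the call (limma adjusted p 0.19, 0.112 and 0.179 without mdx 1, 2 and 3; 1.41e-06 to 0.19 over the alternatives). Without wild type 2 the log2 fold change was 3.34 for Vangl2, 1.74 for Nfatc1 and 1.28 for Plcb4, and without wild type 1 it was 3.09 for Nfatc1 and 2.58 for Plcb4. After the length and GC correction it was 1.88 for Nfatc2 and 1.44 for Vangl2. The list held 7, 10 and 7 higher calls without mdx 1, 2 and 3, and 12 after the length and GC correction.

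Of 21 tested regulators that act outside the cell or at the membrane, 5 were higher and 1 was lower (23.8% and 4.76%, beside 14.6% and 10.3% of all genes), with a median log2 fold change of 0.13. Bambi, a decoy receptor of the TGF-beta family that also touches Wnt signalling, fell from 990 and 1188 in wild type to 198, 127 and 111 in mdx, 7.61-fold lower (limma adjusted p = 0.000968). Adgra2, a receptor of WNT7 signals in vessels, rose from 827 and 687 to 1966, 2207 and 3184, 3.18-fold (limma adjusted p = 0.00185), but was not called after the length and GC correction (log2 fold change 0.32, limma adjusted p = 0.367; 8.66e-09 to 0.367 over the alternatives). Ptk7, a planar polarity co-receptor (323 and 459 against 827, 880 and 1347; limma adjusted p = 0.0139), the glypican gene Gpc3 (187 and 0 against 679, 1013 and 1438; limma adjusted p = 0.0272) and Kremen1, a DKK receptor (1608 and 1616 against 2199, 3030 and 3087; limma adjusted p = 0.0291), were higher with no overlap. None of these 3 calls held without mdx 2 or without mdx 3, and the Gpc3 call did not hold without mdx 1 (limma adjusted p 0.0567 to 0.148 in those fits; over all alternatives 0.000128 to 0.436 for Ptk7, 9.98e-43 to 0.207 for Gpc3 and 0.0209 to 0.75 for Kremen1). Wif1, an antagonist that binds Wnt ligands and was chosen after its values were seen, was listed at 0 in wild type, against 61, 48 and 15 in mdx (limma adjusted p = 0.0405), a call that did not hold in 8 of its 13 alternatives, among them leaving out wild type 1, wild type 2, mdx 1 or mdx 2 (limma adjusted p 0.0835, 0.102, 0.0606 and 0.0693; 0.0213 to 0.102 over the alternatives). The log2 fold change of Gpc3 was 8.96 without wild type 1, 2.40 without wild type 2 and 4.50 with a pseudocount of 10, and after the length and GC correction that of Ptk7 was 0.34 and that of Kremen1 0.10, neither called. The list held 3, 1 and 2 higher calls without mdx 1, 2 and 3, and 2 after the length and GC correction.

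**Figure D5:**
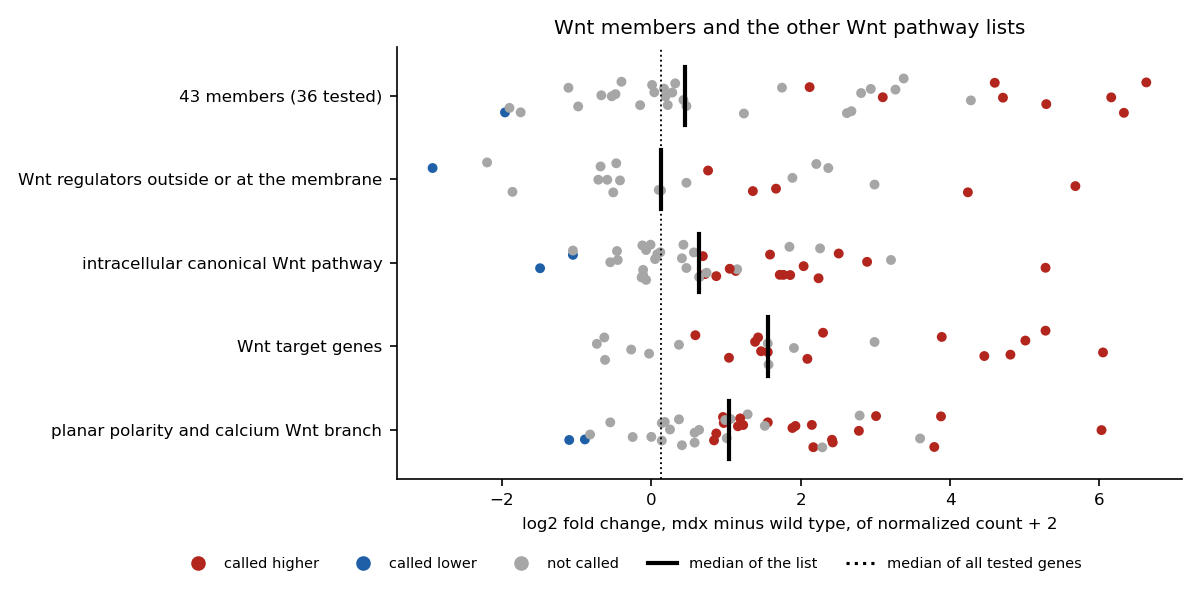
Log2 fold change, mdx minus wild type, of normalized count + 2 (horizontal axis) for each tested gene of the Wnt family and of the 4 other Wnt lists (rows; vertical scatter within a row has no meaning), red for called higher, blue for called lower and grey for not called. The list medians (thick bars) lie at 0.45, 0.13, 0.64, 1.56 and 1.04 from top to bottom, beside 0.135 for all tested genes (dotted line).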

How the data were processed

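RNA-seq of quiescent satellite cells was deposited as 1 table with a column for each of 2 wild-type and 3 mdx libraries. Per the submitters' processing notes, the authors used STAR 2.6.1d, featureCounts 1.6.3 from Subread, DESeq2 1.18.1 and mm10; per the labels' protocols, libraries were made with a stranded low-input total RNA kit. No source used here gives the strand setting of the counting, duplicate removal or any gene filter. The deposited values are treated as a score: normalized counts that the authors rounded to whole numbers. The columns shared 1 median ratio to the gene mean (1.035), and mdx 1 skipped 6 of the first 30 whole numbers. Rounding merges counts where 1 read is worth under 1, so reads could not be restored and no count model was used.

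Values were taken as log2(normalized count + 2), which pulls folds of low genes toward no change. All folds are on this scale and can differ from the ratio of the printed means. Genes with at least 10 in at least 2 libraries were fitted on genotype with limma 3.58.1 in R 4.3.3 (trend and robust moderation), and two-sided p-values were adjusted by Benjamini-Hochberg over the 18199 tested genes (threshold 0.05). Precision is limited by the 2 and 3 libraries. Transcript length and GC content came from the longest GENCODE M21 transcript, found for 22649 of 22683 genes. Alternatives changed the pseudocount, filter, scaling, moderation, length and GC trend, replicate block and libraries. The Wnt genes and all lists were chosen with earlier results of these data known. Named are every Wnt gene, with each library's value for those called; of each other list, the 4 called genes with the smallest p in each direction; and Vangl2, Ctnnb1, Tcf7l2, Lef1 and Dmd. Myc, Wif1 and Gsk3b were named after their values were seen. Upstream sequences are from RefSeq (GRCm38.p6).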

Additional observations from a re-analysis of the deposited data

How the results depend on the processing

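Of the 9 called Wnt genes, Fzd6, Lrp5, Sfrp1 and Sfrp2 were called in all 14 alternatives, and Wnt4, Fzd1 and Wnt10a lost the call most often. Shared with the 9 calls were 8 with a pseudocount of 1 and after rescaling to equal totals (without Wnt4), 9 with a pseudocount of 10, without a filter and after quantile normalization, 8 with a filter of 50 (Wnt5a was not tested) and 8 after the length and GC correction (without Wnt10a). The all-gene median log2 fold change moved from 0.135 to 0.320 with equal totals and to 0.000 with quantile normalization. With 1 wild-type library left, its spread is assumed to equal that of mdx.

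Wnt genes called lower numbered 1; the number was 0 with a pseudocount of 1, after rescaling to equal totals and without trend and robust moderation, and 3 after the length and GC correction. Leaving out 1 library gave 6 to 11 higher and 0 to 1 lower calls. The replicate number gave 4 higher and 0 lower calls among Wnt genes when used as a block (Fzd6, Lrp5, Sfrp1 and Sfrp2). Replicate 3 exists only in mdx, so the block in effect left mdx 3 out of the genotype estimate. Its fold changes therefore equal those of the fit without mdx 3 (log2 fold change of Wnt4 -1.68 in both). The block ended the calls of Wnt5a, Dkk2, Fzd1, Wnt10a and Wnt4 (limma adjusted p = 0.08, 0.0643, 0.0551, 0.0966 and 0.178). Under the block, all genes gave 1163 higher and 860 lower calls, regulators at the membrane 1 higher, the intracellular pathway 7 higher and 1 lower, targets 4 higher, and the polarity and calcium branch 6 higher and 1 lower. Deviations of same-numbered libraries correlated at -0.014 and -0.017 across genes, and the labels name no shared animal, litter or day, so no pairing was assumed.

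Without trend and robust moderation, all genes gave 1150 lower calls, regulators 3 higher, the intracellular pathway 6 higher and 0 lower, targets 7 higher, and the polarity and calcium branch 8 higher and 0 lower. After the length and GC correction there were 2 regulators higher, 9 intracellular genes higher and 4 lower, and 12 polarity and calcium genes higher and 1 lower. Without a filter 3 regulators were higher, and with a filter of 50 there was 1 target lower. Leaving out 1 library gave 1450 to 3308 higher and 1112 to 1853 lower calls over all genes, 1 to 5 regulators higher, 5 to 14 intracellular genes higher, 5 to 15 targets higher and 0 to 1 lower, and 7 to 21 polarity and calcium genes higher.

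Without trend and robust moderation the calls of Wnt4, Fzd1, Dmd, Rhoa, Cdc42, Csnk1d, Gsk3a, Ccnd1, Plcb4, Vangl2, Ptk7, Gpc3 and Kremen1 were lost (limma adjusted p 0.0534 to 0.191). Among the genes named with their alternatives, those that changed sign were uncalled ones. After the length and GC correction the log2 fold change was -0.19 for Wnt9a, 0.15 for Wnt16, -0.25 for Fzd4, -0.47 for Fzd7, -0.59 for Fzd8, -0.29 for Lrp6, -0.12 for Znrf3 and -0.17 for Axin1. After quantile normalization it was -0.01 for Wnt9a, 0.12 for Ctnnb1 and -0.40 for Lef1. With the replicate block it was 0.08 for Wnt2b, -0.05 for Fzd7 and -0.19 for Fzd8, the same estimates as without mdx 3. Without wild type 1 it was -0.44 for Fzd7, -0.28 for Fzd8, -0.24 for Sfrp4 and -0.52 for Lef1, and without wild type 2 it was -0.10 for Wnt9a, -0.23 for Fzd4, 0.09 for Fzd5 and -0.05 for Axin1. Without mdx 2 it was 1.08 for Wnt16, -0.08 for Fzd7 and -0.07 for Fzd8, and without mdx 3 it was 0.08 for Wnt2b, -0.05 for Fzd7 and -0.19 for Fzd8. The other ends of the ranges without 1 library were -0.84 for Wnt2b, 0.69 for Wnt9a, -2.74 for Wnt16, 0.57 for Fzd4, -1.05 for Fzd5, 0.53 for Fzd7, 0.30 for Fzd8, 0.89 for Sfrp4, 0.91 for Axin1 and 1.80 for Lef1. The cause was not tested. The depth in reads is not known from these values, so a listing at 0 gives no upper limit.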
